A study of Homo sapiens with 18 samples.

Results

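The 33 genes described here carry out glycolysis or belong to the response to low oxygen. They were chosen by symbol, each symbol matched 1 row of the deposited count matrix by its Ensembl identifier without version, and the matrix held 35044 genes in all. Of the 33 genes, 4 transport glucose or lactate, 9 act in upper glycolysis, 6 in lower glycolysis and 2 encode lactate dehydrogenase. Another 3 encode regulatory kinases, and 9 are HIF1A and genes known as its targets. All 33 passed the filter on low counts that left 18335 genes to test.

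Glycolysis splits glucose into pyruvate, and cancer cells often run it at a high rate and export the lactate made from pyruvate. When oxygen is low, the HIF-1 transcription factor, whose oxygen-regulated subunit is encoded by HIF1A, binds hypoxia response elements. It then drives glucose uptake, glycolytic enzymes, pyruvate dehydrogenase kinase and angiogenic factors. HIF1A itself is controlled mainly at the protein level, which RNA-seq does not measure.

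RNA-seq was done on 2 lines described as derivatives of HCC1937, a breast cancer cell line that carries a truncating BRCA1 mutation. HCC1937-EV carries an empty vector and HCC1937-OE-BRCA1 an added wild-type BRCA1, and each was sampled at 0 h and after 12 h and 24 h of olaparib, an inhibitor of the DNA repair enzyme PARP1. Each of the 6 conditions had 3 libraries. In the labels olaparib is the treatment of all 18 libraries and WT the genotype entered for HCC1937-EV, whereas the study describes the 0 h cells as untreated and HCC1937-EV as BRCA1-mutated. The labels do not say that the 3 libraries of a condition came from separate cultures, so the p-values measure the spread between these libraries, which may be technical. In bulk RNA, fewer cells with a transcript and less transcript per cell cannot be told apart.

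Total counts lay between 15081973 and 17571922 per library, and the 33 genes took 1.13% to 1.54% of them. Levels are given as CPM, the counts scaled by TMM-normalised library size. A gene was called where its p from the quasi-likelihood test of edgeR, adjusted by Benjamini-Hochberg over all 18335 genes, was below 0.05. BRCA1 was at 118 ± 7.70 CPM in untreated HCC1937-EV and at 138 ± 24.0 CPM in untreated HCC1937-OE-BRCA1 (SD, n = 3), a log2 difference of 0.24 with an adjusted p of 0.0654. At 24 h BRCA1 was at 94.5 ± 4.47 CPM in HCC1937-EV and at 161 ± 7.07 CPM in HCC1937-OE-BRCA1. Its change from 0 h was called in neither line (-0.32 and 0.22, adjusted p = 0.0640 and 0.242). The difference of these changes was called, at 0.54 ± 0.16 (adjusted p = 0.0230). The counts do not separate the added copy from the mutated gene. Libraries of the same condition correlated at 0.981 to 0.991 and libraries of different lines at 0.728 to 0.753. Of 7 basal breast markers, KRT5, KRT6B, KRT14, CDH3 and TP63 stayed below 1 CPM in all 9 HCC1937-EV libraries, where the 7 summed to 145 to 205 CPM against 3206 to 5107 CPM in HCC1937-OE-BRCA1. Of 5 epithelial markers, EPCAM and KRT19 were below 1 CPM in every HCC1937-EV library while KRT8 and KRT18 were high in both lines, and the sums were 2421 to 3165 CPM against 3979 to 6521 CPM. Fibroblast markers summed to 96.7 to 153 CPM in HCC1937-EV, mainly COL1A1, against 6.53 to 12.1 CPM. The lines thus differed far beyond BRCA1, whether both came from 1 stock of HCC1937 was not tested, and in every comparison of the lines below the BRCA1 status and the line itself cannot be told apart.

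Promoters are shown for PFKFB4, BNIP3 and ADM, 3 members that changed with olaparib in HCC1937-OE-BRCA1 and for which RefSeq (GRCh38.p14) gave a promoter, from 250 bases before to 50 after the gene start. Each runs 5′ to 3′ along the gene's strand. Capitals mark ACGTG or GCGTG on either strand, the core of the hypoxia response element. They lie at chr3:48556754-48557053 (minus strand), chr10:131981874-131982173 (minus strand) and chr11:10304823-10305122 (plus strand).
PFKFB4: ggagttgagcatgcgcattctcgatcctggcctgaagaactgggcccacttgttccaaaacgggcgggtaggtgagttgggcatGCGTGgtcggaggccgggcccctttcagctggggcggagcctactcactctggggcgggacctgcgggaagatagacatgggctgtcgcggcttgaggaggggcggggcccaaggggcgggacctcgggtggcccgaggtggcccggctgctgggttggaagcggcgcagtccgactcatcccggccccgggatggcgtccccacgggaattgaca
BNIP3: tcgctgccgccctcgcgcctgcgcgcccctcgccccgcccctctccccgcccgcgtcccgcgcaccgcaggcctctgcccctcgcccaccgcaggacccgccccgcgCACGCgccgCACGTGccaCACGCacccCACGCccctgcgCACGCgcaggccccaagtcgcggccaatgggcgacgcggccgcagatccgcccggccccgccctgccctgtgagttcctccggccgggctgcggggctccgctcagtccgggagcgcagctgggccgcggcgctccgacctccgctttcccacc
ADM: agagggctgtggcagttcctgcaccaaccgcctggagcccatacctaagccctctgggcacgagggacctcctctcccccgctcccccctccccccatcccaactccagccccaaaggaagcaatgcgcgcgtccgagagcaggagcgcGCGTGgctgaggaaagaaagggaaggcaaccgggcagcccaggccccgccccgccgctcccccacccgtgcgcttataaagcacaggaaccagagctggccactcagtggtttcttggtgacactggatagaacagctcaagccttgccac

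The BNIP3 window held 2 matches of ACGTG, which are the 2 strands of CACGTG and overlap, and 4 of GCGTG. The PFKFB4 and ADM windows held 1 GCGTG each. Of the 33 genes, 29 matched a RefSeq promoter, and 21 of these (72.4%) held ACGTG or GCGTG, against 48.4% of 35116 promoters of the same 300 bases. ACGTG alone was in 12 of 29 (41.4%), against 21.4% of all promoters. The 29 all belong to protein-coding genes, and the 35116 were not matched to them in gene type or GC content. These shares therefore compare unlike sets, and the gap was not tested. A match in a promoter is a description of the letters and does not show binding.

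The first comparison asked how the untreated lines differed. Of the 33 genes, 11 were higher and 16 lower in HCC1937-OE-BRCA1, against 39.4% and 33.3% of all genes tested, that is 7232 higher and 6098 lower. The median log2 difference of the 33 genes was -0.30, against 0.11 over all genes. Over the 9 libraries of each line, treated ones included, 8 genes lay higher and 14 lay lower in HCC1937-OE-BRCA1 without any overlap, against 29.5% and 23.9% of all genes, and 11 overlapped.

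**Figure D1:**
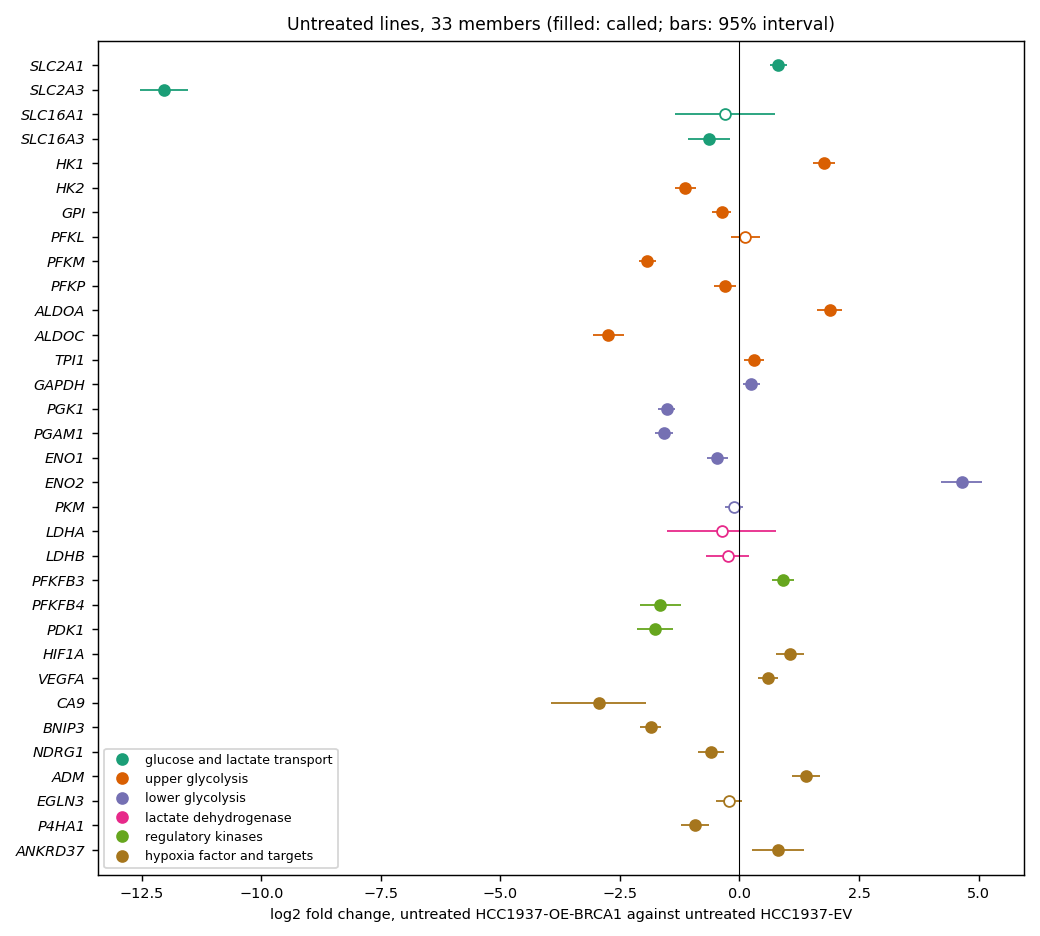
The log2 fold change of each of the 33 genes between the untreated lines (points; bars, 95% interval; n = 3 libraries per line), coloured by role, with filled points for called genes. SLC2A3 lies at the far left on 0 to 1 counts per HCC1937-OE-BRCA1 library, ENO2 at the far right at 4.65, and 6 genes with open points were not called.

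The lines differed in their glucose transporters. SLC2A3, the high-affinity glucose transporter GLUT3 (chr12:7919230-7936275 in GRCh38, minus strand), was at 204, 189 and 225 CPM in untreated HCC1937-EV. HCC1937-OE-BRCA1 held 0, 1 and 1 counts of SLC2A3 at 0 h, 2, 1 and 1 at 12 h, and 4, 5 and 1 at 24 h. The ratio of the untreated lines was 4985, with a 95% interval from counting error alone of 1380 to 41168 (9997 against 2 counts). In HCC1937-EV, SLC2A1, the widely expressed transporter GLUT1, and SLC2A3 were at similar levels per length, with medians of 38.5 and 30.7 CPM per kb of exon over 9 libraries. In HCC1937-OE-BRCA1, SLC2A1 supplied practically the whole pair, at 65.8 CPM per kb. Its 9 libraries lay between 274 and 351 CPM, all above the 164 to 224 CPM of HCC1937-EV, and the untreated log2 difference was 0.81 ± 0.09 (SE) with an adjusted p of 4.36e-08.

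SLC16A3, the transporter MCT4 that carries lactate out of glycolytic cells, was at 184, 236 and 207 CPM in untreated HCC1937-EV and at 83.4, 153 and 169 CPM in untreated HCC1937-OE-BRCA1. The log2 difference was -0.63 ± 0.21 with an adjusted p of 0.0104, and the groups did not overlap. The call was lost without replicate 1 of untreated HCC1937-OE-BRCA1 (-0.37, adjusted p = 0.0671) and without replicate 2 of untreated HCC1937-EV (-0.53, adjusted p = 0.0501). SLC16A1, the more general monocarboxylate transporter MCT1, was not called, and its libraries ranged from 12.5 to 61.6 CPM in HCC1937-EV and from 3.83 to 48.6 CPM in HCC1937-OE-BRCA1.

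The isozyme transcripts of several enzymes differed between the 2 lines. Hexokinase traps glucose in the cell as its phosphate. HK1, the housekeeping hexokinase, was at 23.9, 23.3 and 25.6 CPM in untreated HCC1937-EV and at 77.95, 76.0 and 95.03 CPM in untreated HCC1937-OE-BRCA1, a log2 difference of 1.77 ± 0.11 (adjusted p = 5.96e-12). HK2, the inducible form common in tumours, had 48.5 to 66.7 CPM in the 9 HCC1937-OE-BRCA1 libraries and 94.5 to 127 CPM in HCC1937-EV (untreated log2 difference -1.13 ± 0.11, adjusted p = 4.85e-09). Per length, HK1 made up 16.5% ± 0.516 of the pair in untreated HCC1937-EV and 59.5% ± 1.18 in untreated HCC1937-OE-BRCA1 (SD, n = 3). The leading hexokinase transcript was therefore HK2 in one line and HK1 in the other.

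Phosphofructokinase, which commits sugar to glycolysis, has a muscle (PFKM), a liver (PFKL) and a platelet (PFKP) form. PFKM, at 208, 214 and 216 CPM in untreated HCC1937-EV, was at 52.2, 56.7 and 58.7 CPM in untreated HCC1937-OE-BRCA1, a log2 difference of -1.93 ± 0.08 (adjusted p = 1.94e-14). Its share of the 3 forms per length was 31.5% ± 0.640 in the first and 11.9% ± 1.14 in the second. PFKP led in both, with 45.0% ± 0.337 and 51.9% ± 1.44. PFKL was not called between the untreated lines (0.13 ± 0.15, adjusted p = 0.450).

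Aldolase and enolase showed the widest contrasts among the enzymes. ALDOC, the aldolase best known from brain, was at 24.5, 21.2 and 24.5 CPM in untreated HCC1937-EV and at 3.08, 4.25 and 3.15 CPM in HCC1937-OE-BRCA1, a log2 difference of -2.74 ± 0.16 (adjusted p = 1.28e-12). ALDOA, the ubiquitous form, was higher in HCC1937-OE-BRCA1 by 1.88 ± 0.13 (adjusted p = 2.79e-11), yet its medians were only 2.25 and 7.66 CPM per kb, against 420 and 462 CPM per kb for TPI1, the next enzyme of the pathway. An annotated gene on the same strand, AC093512.2, covers 42.3% of the exonic bases of ALDOA, and how reads from such a stretch were counted is not given in the sources used here, so the level of ALDOA is uncertain. ENO2, the enolase of neurons, was at 1.49, 0.742 and 0.925 CPM in HCC1937-EV and at 23.8, 25.8 and 30.0 CPM in HCC1937-OE-BRCA1, a log2 difference of 4.65 ± 0.21 (adjusted p = 2.56e-14). It remained the minor form, with 1.79% ± 0.201 of enolase transcripts per length beside ENO1.

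**Figure D2:**
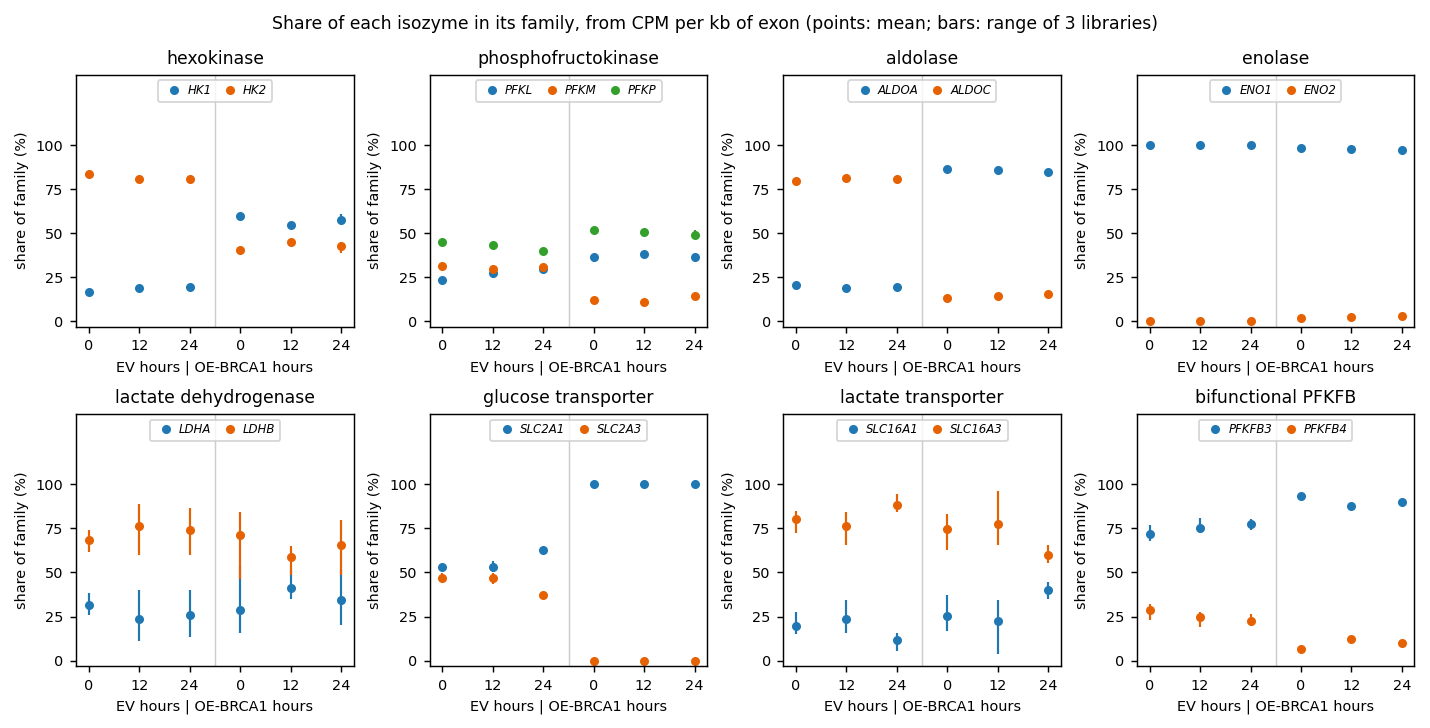
The share of each isozyme in its family, computed from CPM per kb of exon, against hours of olaparib in HCC1937-EV (left of each grey line) and HCC1937-OE-BRCA1 (right), as the mean (points) and range (bars) of 3 libraries. By these counts HK2 and ALDOC lead in HCC1937-EV and HK1 and ALDOA in HCC1937-OE-BRCA1 at all 3 times, while the lactate dehydrogenase shares overlap. The aldolase shares rest on the uncertain level of ALDOA, so which aldolase leads is uncertain too.

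The abundant enzymes of lower glycolysis split. PGK1, which makes the first ATP of the payoff phase, had medians of 993 CPM in HCC1937-EV and 326 CPM in HCC1937-OE-BRCA1, and PGAM1, the phosphoglycerate mutase, 549 and 164 CPM. The untreated log2 differences were -1.52 ± 0.08 and -1.58 ± 0.09 (adjusted p = 6.06e-13 and 1.21e-12), and the 9 libraries of each line did not overlap for either gene. ENO1 was lower by a smaller margin (-0.46 ± 0.11, adjusted p = 0.000744). GAPDH and TPI1 were slightly higher in HCC1937-OE-BRCA1, by 0.24 ± 0.09 and 0.30 ± 0.10 (adjusted p = 0.0149 and 0.0104), and both calls were lost without replicate 2 of untreated HCC1937-OE-BRCA1 (0.20 and 0.21, adjusted p = 0.0568 and 0.0753) and when each library's trend with GC content and transcript length was removed (0.08 and 0.15, adjusted p = 0.380 and 0.108). PKM, the pyruvate kinase, was not called (-0.12 ± 0.09, adjusted p = 0.231). GPI, the isomerase after hexokinase, differed by -0.38 ± 0.10 (adjusted p = 0.00159).

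Neither lactate dehydrogenase gene was called between the untreated lines. LDHA, which reduces pyruvate to lactate, ranged from 17.1 to 103 CPM over the HCC1937-EV libraries and from 16.2 to 80.3 CPM over those of HCC1937-OE-BRCA1. The pooled coefficient of variation within conditions was 54.6% and 64.1%, against medians of 9.72% and 9.02% over the 33 genes. Without replicate 1 of untreated HCC1937-OE-BRCA1, LDHA was called lower there (-1.25, adjusted p = 0.0493). SLC16A1 varied by 42.7% and 46.6%. Of the 33 genes, 14 have copies in the matrix that carry their name followed by P and a number, 77 in all. These held 2.49% of the counts shared by LDHA and its copies and 4.92% of those shared by BNIP3 and its copies. Whether reads that match several places were discarded is not given in the sources used here, so the levels of genes with copies are uncertain.

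The regulatory kinases set the flow into glycolysis and out of it. PFKFB3 and PFKFB4 make fructose 2,6-bisphosphate, the main activator of phosphofructokinase, and PDK1 inhibits pyruvate dehydrogenase and so keeps pyruvate from the citric acid cycle. PFKFB3 was higher in untreated HCC1937-OE-BRCA1 by 0.90 ± 0.11 (adjusted p = 2.58e-07), whereas PFKFB4 differed by -1.65 ± 0.21 (adjusted p = 3.49e-07). PDK1 was at 37.7, 31.2 and 35.5 CPM in untreated HCC1937-EV and at 14.0, 8.26 and 8.44 CPM in HCC1937-OE-BRCA1, where the difference was -1.76 ± 0.18 on the log2 scale (adjusted p = 1.56e-08). The 2 groups of PDK1 libraries did not overlap.

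HIF1A and its targets did not share a direction between the untreated lines. HIF1A was at 148, 115 and 132 CPM in HCC1937-EV and at 338, 241 and 242 CPM in HCC1937-OE-BRCA1, a log2 difference of 1.06 ± 0.14 (adjusted p = 6.84e-07). With it, VEGFA, the angiogenic growth factor, ADM, which encodes the vasodilator adrenomedullin, and ANKRD37 were higher, by 0.60, 1.40 and 0.80 on the log2 scale. CA9, the carbonic anhydrase often used as a hypoxia marker, BNIP3, a mitophagy receptor, NDRG1, a stress-induced gene, and P4HA1, a collagen prolyl hydroxylase subunit, were lower, with log2 differences of -2.94, -1.85, -0.59 and -0.93. CA9 stood at 4.78, 2.78 and 5.49 CPM against 0.308, 0.493 and 0.882 CPM, the latter from 5, 8 and 14 counts. EGLN3, a prolyl hydroxylase that marks HIF for destruction, was not called (-0.21 ± 0.13, adjusted p = 0.142). ARHGEF39 and UFSP2 on the opposite strand cover 38.5% of the exonic bases of CA9 and 35.2% of those of ANKRD37, and whether counting used strand is not given in the sources used here.

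Olaparib for 12 h called none of the 33 genes in HCC1937-EV with edgeR's quasi-likelihood test, against 0.0273% of all genes called higher and 0.0164% called lower. At an unadjusted p under 0.05 there were 3 of the 33 genes and 2963 of all genes, and DESeq2's Wald test also called 0. The 3 genes were SLC16A3, PFKL and ALDOC, with log2 changes of 0.55 ± 0.21, 0.44 ± 0.15 and 0.40 ± 0.13. PFKL was at 202, 259 and 327 CPM at 12 h against 182, 206 and 194 CPM at 0 h, so the groups overlapped by replicate 1 at 12 h. The libraries at 12 h also differed in how their levels followed GC content: across 13643 genes, the rank correlation of a library's deviation from its line's mean with GC content was -0.58, -0.21 and 0.64 for replicates 1 to 3. Without replicate 1 at 12 h, SLC16A3 and PFKL were called, at 0.78 (adjusted p = 0.0355) and 0.59 (adjusted p = 0.0349). Without the filter on low counts 3 members were called, SLC16A1, SLC16A3 and PFKL.

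At 24 h in HCC1937-EV, 4 of the 33 genes rose and 1 fell, against 8.62% and 5.12% of all genes tested. The median log2 change was 0.04 for the 33 genes and 0.00 for all genes. None of the 6 enzymes of lower glycolysis was called, and their log2 changes lay between -0.09 for ENO2 and 0.10 for PGAM1. Of the 9 HIF1A-related genes none was called either, 3 with a positive and 6 with a negative log2 change.

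**Figure D3:**
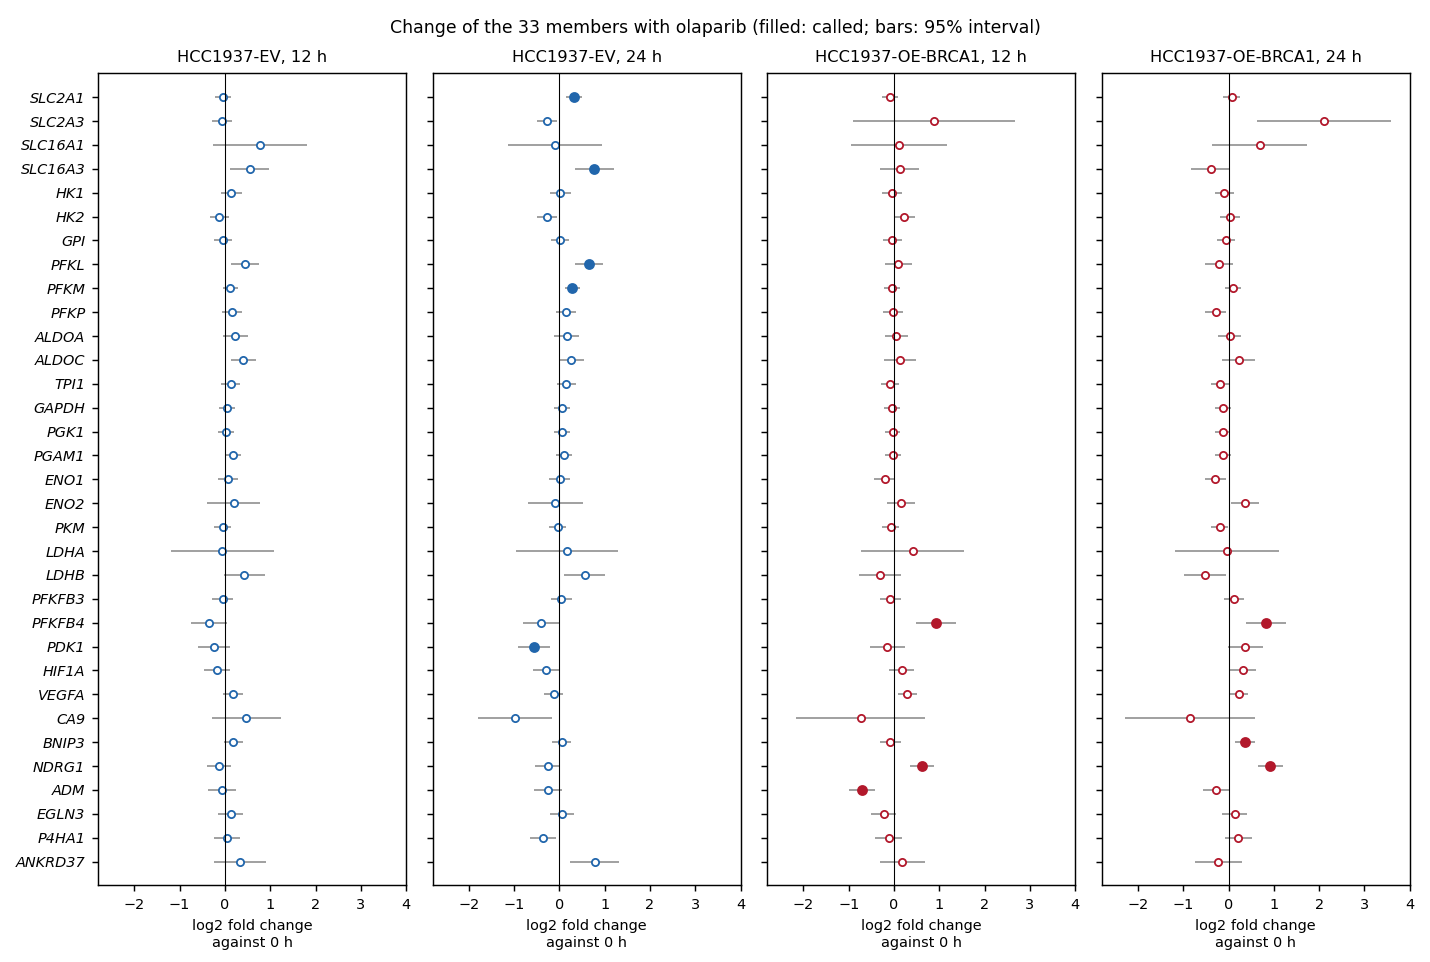
The log2 fold change of each of the 33 genes after olaparib against 0 h in the 4 treatment comparisons (points; bars, 95% interval; n = 3 libraries per condition), with filled points for called genes. No point is filled at 12 h in HCC1937-EV and 5 are at 24 h, against 3 at each time in HCC1937-OE-BRCA1; SLC2A3 there rests on 0 to 5 counts per library.

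The 4 genes that rose in HCC1937-EV were PFKL, PFKM, SLC16A3 and SLC2A1. PFKL was at 295, 322 and 299.7 CPM at 24 h, all above the 182, 206 and 194 CPM at 0 h, a log2 change of 0.66 ± 0.15 (adjusted p = 0.00897). SLC16A3 was at 357, 370.1 and 344 CPM against 184, 236 and 207 CPM, a log2 change of 0.77 ± 0.21 (adjusted p = 0.0209). Smaller rises with no overlap were those of SLC2A1, from 182, 174 and 177 to 216, 223 and 224 CPM, and PFKM, from 208, 214 and 216 to 249, 271 and 257 CPM. They came to 0.32 ± 0.09 and 0.28 ± 0.08 on the log2 scale (adjusted p = 0.0232 and 0.0267). PDK1 fell, from 37.7, 31.2 and 35.5 to 22.7, 21.7 and 26.1 CPM, by 0.57 on the log2 scale (SE 0.17, adjusted p = 0.0326), and its groups did not overlap. SLC2A3 and HK2 were both at -0.27 with no overlap and were not called (adjusted p = 0.0880 and 0.0847). The share of SLC2A3 in its pair with SLC2A1 was 47.1% at 0 h and 37.2% at 24 h.

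Leaving out 1 library often cost these 5 calls, although it changed their sizes little. Such a fit also has fewer libraries, so a lost call does not by itself point to the library left out. SLC2A1 and PFKM lost the call in all 6 fits that left out 1 library of the comparison, with log2 changes of 0.30 to 0.34 and 0.25 to 0.31 and adjusted p of 0.0570 to 0.0903 and 0.0549 to 0.133. SLC16A3 and PDK1 kept it in 2 of 6, without replicate 2 at 0 h and without replicate 3 at 24 h (0.68 to 0.87 and -0.65 to -0.51 over the 6, adjusted p up to 0.107 and 0.127). PFKL kept it in 5 of 6, and without replicate 1 at 0 h it stood at 0.61 with an adjusted p of 0.0584.

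The changes at 24 h followed GC content in both lines, but in opposite directions. In HCC1937-OE-BRCA1 the log2 change fell with GC content (rank correlation -0.35 across 14487 genes, a description). Genes of 60% to 65% GC had a median of -0.20 there, and genes of 35% to 40% GC a median of 0.13. The 3 untreated HCC1937-EV libraries had negative rank correlations of their deviation with GC content (-0.58, -0.22 and -0.43) and the 3 at 24 h positive ones (0.27, 0.61 and 0.42). Across 13430 genes the log2 change at 24 h in HCC1937-EV rose with GC content (rank correlation 0.55, a description across genes). In this line genes of 60% to 65% GC had a median of 0.32 and genes of 35% to 40% GC a median of -0.27. PFKL (64.1% GC) and SLC16A3 (62.7%) lie in the first range and PDK1 (39.8%) in the second. With a correction for GC content and length, PFKL and SLC16A3 were still called at 0.37 and 0.53 (adjusted p = 0.00249 and 0.00939), PFKM at 0.28 (adjusted p = 0.00304) and SLC2A1 at 0.17 (adjusted p = 0.0466). PDK1 came to -0.24 and was no longer called (adjusted p = 0.149), while ANKRD37 was then called higher and HK2, PFKFB4, CA9 and ADM lower. In this comparison none of the 7 basal and 5 epithelial markers was called, and COL1A1 of the 3 fibroblast markers and ESR1 of the 3 luminal markers were higher, by 0.44 and 0.68, with their part in these changes not tested.

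**Figure D4:**
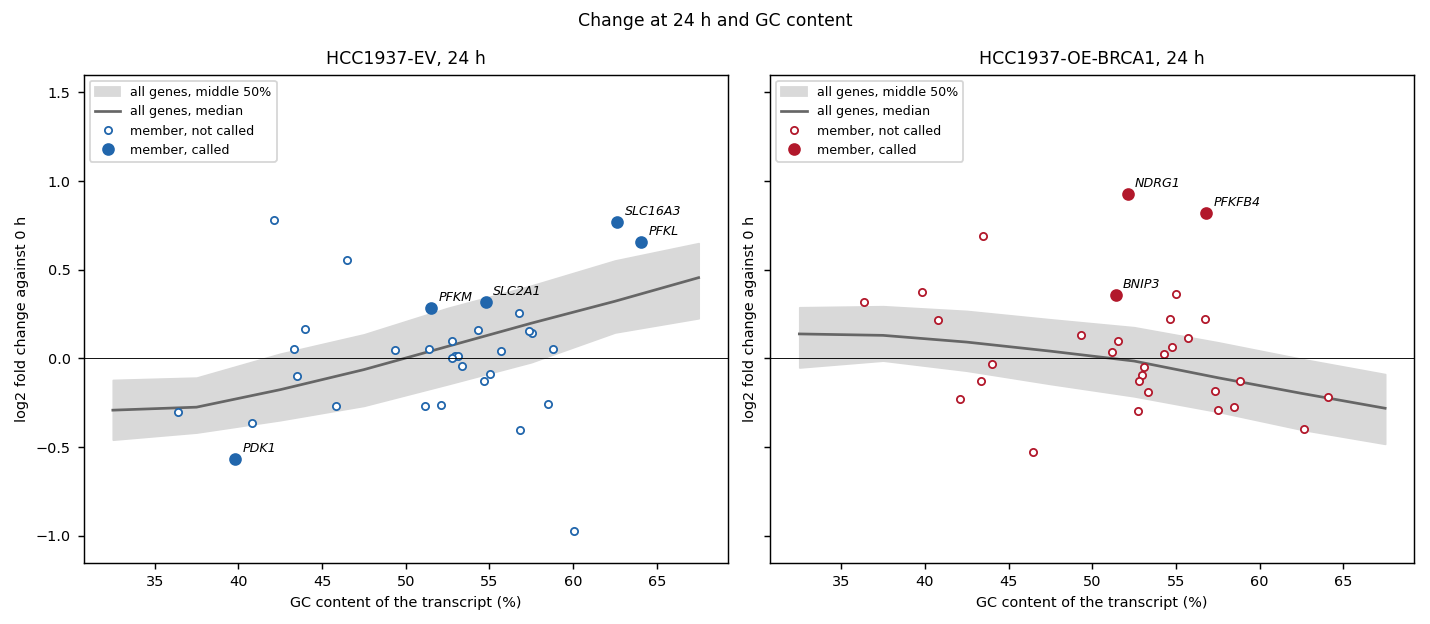
The log2 fold change at 24 h of the 33 genes (points; filled if called) against the GC content of the transcript, over the median (line) and middle 50% (band) of all genes in bins of 5% GC, in HCC1937-EV (left) and HCC1937-OE-BRCA1 (right; SLC2A3 and CA9, at 0 to 14 counts, left out). PFKL and SLC16A3 lie above a band that climbs with GC content, PDK1 below it, and NDRG1 and PFKFB4 stand well above a band that declines.

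In HCC1937-OE-BRCA1, 12 h of olaparib raised 2 of the 33 genes and lowered 1, against 1.7% and 0.605% of all genes tested. The median log2 change was -0.03 for the 33 genes and 0.00 for all. No transporter and no glycolytic enzyme was called by edgeR, and apart from SLC2A3 their log2 changes lay between -0.31 (LDHB) and 0.41 (LDHA), with HK2 alone at an unadjusted p under 0.05. The 3 called genes were a regulatory kinase and 2 hypoxia targets. Of the 7 basal markers KRT6B was called higher in this comparison, at 1.04 (279 against 136 CPM), and its part in these changes was not tested.

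NDRG1, which encodes a stress-responsive protein linked to differentiation and metastasis suppression, had 58.1, 66.6 and 78.8 CPM at 0 h. It was at 103, 104 and 104 CPM at 12 h and at 133, 129 and 125 CPM at 24 h. All 6 treated libraries lay above the untreated ones, and the 24 h libraries lay above those at 12 h. The log2 change at 12 h was 0.61 ± 0.13 (adjusted p = 0.00888), and at 24 h it was 0.93 ± 0.13 (adjusted p = 9.23e-05). At 24 h the call held without any single library (0.82 to 1.05). At 12 h it was lost without replicate 1 at 0 h, where the change was 0.51 with an adjusted p of 0.0521.

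PFKFB4, whose product favours glycolytic flow through fructose 2,6-bisphosphate, was at 3.82, 5.05 and 5.10 CPM at 0 h. It was at 8.04, 9.38 and 9.22 CPM at 12 h and at 8.11, 7.43 and 9.14 CPM at 24 h. All treated libraries were above all untreated ones, and the 2 times overlapped. The log2 changes were 0.93 ± 0.21 (adjusted p = 0.0158) and 0.82 ± 0.21 (adjusted p = 0.0198). The 12 h call was lost without replicate 1 at 0 h (0.80, adjusted p = 0.0797) and without replicate 2 or 3 at 12 h (0.88 and 0.90, adjusted p = 0.0821 and 0.0730). The 24 h call was lost without replicate 1 or 3 at 24 h (0.83 and 0.74, adjusted p = 0.0536 and 0.0983). Even so, PFKFB4 per length remained the minor form, with 12.1% ± 1.41 of the PFKFB3 and PFKFB4 pair at 12 h against 6.40% ± 0.764 at 0 h. UCN2 overlaps 4.73% of the exonic bases of PFKFB4.

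ADM fell at 12 h. It was at 24.7, 28.3 and 22.0 CPM at 0 h, at 16.0, 15.2 and 14.7 CPM at 12 h and at 20.7, 22.0 and 19.3 CPM at 24 h. The 12 h libraries lay below all others of the line, and the change was -0.71 ± 0.14 on the log2 scale (adjusted p = 0.00401), called without any single library (-0.79 to -0.61). At 24 h it was not called (-0.28 ± 0.13, adjusted p = 0.215). NDRG1 and ADM, both known HIF-1 targets, thus differed in direction at 12 h.

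At 24 h in HCC1937-OE-BRCA1, 3 of the 33 genes rose and none fell in edgeR's test, against 4.71% and 3.55% of all genes. Besides NDRG1 and PFKFB4, BNIP3, which tags mitochondria for removal, rose from 25.1, 21.7 and 20.3 to 27.3, 30.3 and 28.2 CPM. The groups did not overlap, but the log2 change was small, at 0.36 ± 0.11 (adjusted p = 0.0426). Of the 6 fits that each left out 1 library, the fit without replicate 1 at 0 h kept the call and the other 5 lost it (0.29 to 0.45, adjusted p up to 0.159). The median change was 0.02 for both the 33 genes and all genes. In edgeR's test 11 of the 33 had an unadjusted p under 0.05, beside 4336 of all 18335 genes. DESeq2's Wald test also called none lower.

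Several abundant enzymes stood slightly lower at 24 h without being called. ENO1, PKM, GAPDH, PGK1 and TPI1 each had all 3 libraries below those at 0 h. Their log2 changes were -0.29, -0.19, -0.12, -0.13 and -0.18, with adjusted p from 0.0986 to 0.410. PFKP and ADM also lay wholly below, whereas GPI, more abundant than PGK1, overlapped at -0.05. SLC16A1, PFKM and ENO2, not called either, had all 3 libraries above those at 0 h, at 0.69, 0.10 and 0.36. The share of all genes without such overlap was not counted, so no common direction is read from these genes. HIF1A was at 331, 339.9 and 355 CPM against 338, 241 and 242 CPM, a change of 0.32 ± 0.14 that was not called (adjusted p = 0.153). Replicate 1 at 0 h stood apart here: its deviation had a rank correlation with GC content of -0.58, against 0.29 and 0.54 for replicates 2 and 3 and -0.28 to -0.43 for the 3 libraries at 24 h. Without it, HIF1A and PDK1 were called higher (0.50 and 0.66, adjusted p = 0.00996 and 0.00935) beside the 3 genes above. SLC16A3, PFKP, ENO1 and LDHB were then called lower. With the correction for GC content and length, NDRG1 and PFKFB4 were called at 0.86 and 0.85 (adjusted p = 4.58e-05 and 0.00718) and BNIP3 at 0.30 (adjusted p = 0.0495), ENO2 was also called higher, and PFKP and ENO1 lower. Of the markers at 24 h, KRT8, KRT18 and CDH1 of the 5 epithelial ones and KRT5 of the 7 basal ones were lower and TP63 higher, ERBB2 of the 3 luminal ones was lower and PECAM1 of the 2 endothelial ones higher, and their part in these changes was not tested.

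**Figure D5:**
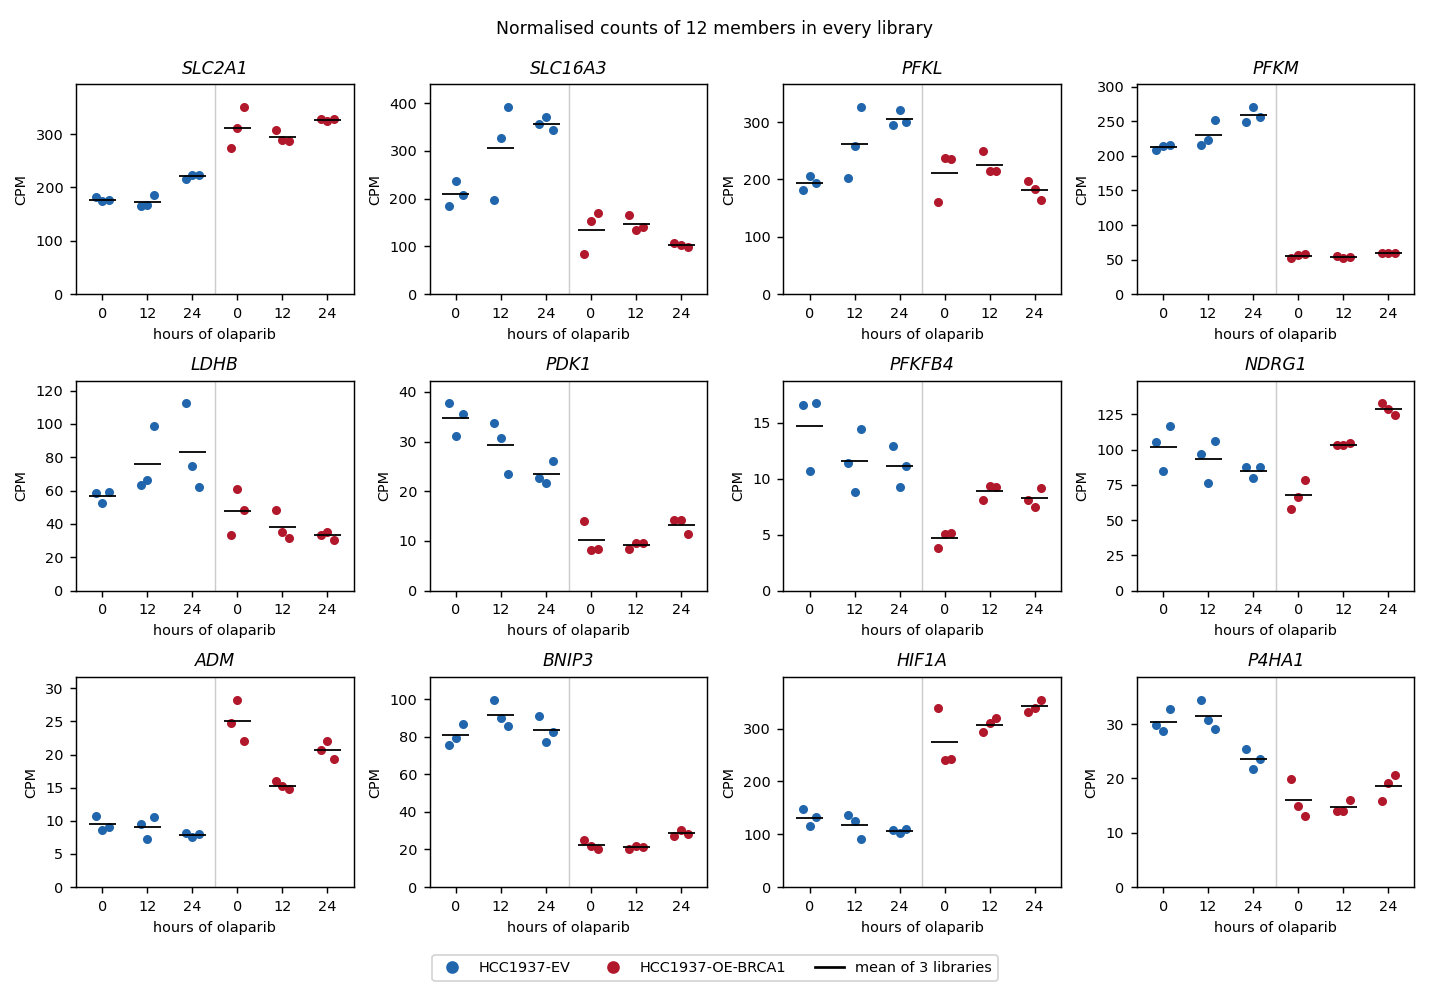
CPM of 12 members in each library (points; black lines, means of 3) against hours of olaparib in HCC1937-EV (blue) and HCC1937-OE-BRCA1 (red), each axis from 0. In HCC1937-OE-BRCA1 NDRG1 lies at 58.1 to 78.8 CPM at 0 h and at 125 to 133 CPM at 24 h, and in HCC1937-EV PFKL lies at 182 to 206 and at 295 to 322 CPM.

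Whether the lines differed in their response was tested as the difference of the effects, HCC1937-OE-BRCA1 minus HCC1937-EV. These tests use the same libraries as the comparisons above. At 12 h, 1 of the 33 genes had a higher effect and none a lower one in edgeR's test, against 0.376% and 0.142% of all genes. It was PFKFB4, at 1.28 ± 0.29 (adjusted p = 0.0458), with 11.4, 8.81 and 14.5 CPM at 12 h against 16.6, 10.7 and 16.7 CPM at 0 h in HCC1937-EV. The call held in 3 of 12 fits without 1 library (1.11 to 1.47, adjusted p up to 0.136). NDRG1 was at 0.75 ± 0.18 and not called (adjusted p = 0.0655). In this test 5 of the 33 genes had an unadjusted p under 0.05, beside 2690 of all 18335 genes.

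At 24 h, 6 of the 33 genes had a higher and 3 a lower effect in HCC1937-OE-BRCA1, against 8.16% and 11.2% of all genes. NDRG1 differed most clearly, at 1.19 ± 0.18 (adjusted p = 0.000404): in HCC1937-EV it stood at 105, 84.6 and 117 CPM at 0 h and at 87.7, 79.9 and 88.0 CPM at 24 h. PFKFB4 differed by 1.22 ± 0.29 (adjusted p = 0.00640) and PDK1 by 0.94 ± 0.25 (adjusted p = 0.0128). PFKL and SLC16A3 differed in the other direction, at -0.88 ± 0.21 and -1.17 ± 0.30 (adjusted p = 0.00709 and 0.0102). These 5 held in all 12 fits that left out 1 library. PDK1 alone among them lost the call with the GC and length correction (0.44, adjusted p = 0.0630), and PFKL came to -0.46 and SLC16A3 to -0.80 there.

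The other 4 calls were less firm. LDHB was at 112, 74.8 and 62.4 CPM at 24 h against 58.4, 52.5 and 59.0 CPM at 0 h in HCC1937-EV, and at 33.5, 35.1 and 30.7 against 33.6, 61.1 and 48.2 CPM in HCC1937-OE-BRCA1. Its difference of -1.08 ± 0.31 (adjusted p = 0.0191) was lost without replicate 1 of HCC1937-EV at 24 h (-0.81, adjusted p = 0.0667) and without replicate 2 at 0 h or replicate 3 at 24 h of HCC1937-OE-BRCA1 (-0.86 and -1.02, adjusted p = 0.0715 and 0.0525). AC010197.2 on the same strand covers 33.4% of the exonic bases of LDHB. HIF1A, at 107, 103 and 110.2 CPM at 24 h in HCC1937-EV, differed by 0.62 ± 0.19 (adjusted p = 0.0295), which held in 5 of 12 (adjusted p up to 0.0880) and came to 0.22 with the GC and length correction (adjusted p = 0.0867). P4HA1 went from 29.8, 28.7 and 32.8 to 25.5, 21.8 and 23.6 CPM in HCC1937-EV and from 19.8, 14.9 and 13.1 to 15.8, 19.2 and 20.7 CPM in HCC1937-OE-BRCA1. Its 0.58 ± 0.20 (adjusted p = 0.0479) held in 2 of 12 (adjusted p up to 0.132), came to 0.37 with that correction (adjusted p = 0.0864), and was also lost without the filter on low counts and when only the compared libraries were fitted. SLC2A3 was called, but with 0, 1 and 1 against 4, 5 and 1 counts in HCC1937-OE-BRCA1 no size can be given for its effect there.

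Related genes outside the 33 were counted in 5 further lists, to be read beside the shares of all genes. Values with the GC and length correction were read for the 33 genes only. The list values below are therefore not corrected for the GC trends described above. In HCC1937-EV at 24 h, 8.62% of all genes rose and 5.12% fell, and in HCC1937-OE-BRCA1 4.71% and 3.55%. Of all 18335 genes, 2963 had an unadjusted p under 0.05 in edgeR's test at 12 h in HCC1937-EV. At 24 h in HCC1937-OE-BRCA1 the number was 4336. Of 32 other hypoxia-induced genes tested, none was called at 12 h in HCC1937-EV by edgeR (3 at an unadjusted p under 0.05), and 1 rose and 3 fell there at 24 h. In HCC1937-OE-BRCA1, 1 rose at 12 h (TGFB3) and 5 rose at 24 h with none lower in edgeR's test (12 at an unadjusted p under 0.05 in either direction). Among them were RORA, a nuclear receptor, at 1.17 ± 0.35, and CA12, a carbonic anhydrase, at 0.73 ± 0.18 (adjusted p = 0.0434 and 0.0185). Their median change at 24 h was 0.17 in HCC1937-OE-BRCA1 and -0.06 in HCC1937-EV, beside 0.02 and 0.00 over all genes. The difference of the 24 h effects was higher for 7 of the 32 and lower for 1, against 8.16% and 11.2% of all genes.

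Of 14 genes of the oxygen-sensing machinery, ELOB, an elongin subunit of the VHL ubiquitin ligase, and VHL rose at 24 h in HCC1937-EV, by 0.81 ± 0.19 and 0.39 ± 0.11 (adjusted p = 0.00990 and 0.0271), and edgeR called none in HCC1937-OE-BRCA1 at 24 h, with 3 at an unadjusted p under 0.05. Of 18 other glycolytic isoforms tested, 3 rose at 24 h in HCC1937-EV (LDHD, SLC2A6 and PGM1) and 2 in HCC1937-OE-BRCA1 (LDHD and SLC2A12). SLC2A12, a further glucose transporter, also rose there at 12 h, by 1.10 ± 0.16 (adjusted p = 0.000915). Of 10 pentose phosphate genes, 3 rose at 24 h in HCC1937-EV, among them PGLS, the lactonase of the pathway (0.52 ± 0.13, adjusted p = 0.0161), and RPIA, the ribose phosphate isomerase, fell in HCC1937-OE-BRCA1 by 0.71 on the log2 scale (SE 0.12, adjusted p = 0.000667). Of 30 genes of pyruvate entry and the citric acid cycle, 7 rose at 24 h in HCC1937-EV. PC, the pyruvate carboxylase, and MPC1, a subunit of the mitochondrial pyruvate carrier, led them at 0.78 ± 0.13 and 0.58 ± 0.14 (adjusted p = 0.00155 and 0.0118). In HCC1937-OE-BRCA1 3 of these 30 rose, PDP1, PDK3 and SUCLA2, by 0.34 to 0.54.

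Between the untreated lines the same lists also differed, beside 39.4% of all genes higher and 33.3% lower. Of the 32 other hypoxia-induced genes 9 were higher and 16 lower in HCC1937-OE-BRCA1, and of the 30 genes of pyruvate entry and the citric acid cycle 7 were higher and 18 lower, with median log2 differences of -0.50 and -0.55. The oxygen-sensing genes had 4 higher and 3 lower, the other glycolytic isoforms 5 higher and 8 lower, and the pentose phosphate genes 5 higher and 4 lower. Among those isoforms the largest called differences were those of SLC16A7 and SLC2A12, at 12.1 ± 0.66 and 9.74 ± 0.46 (adjusted p = 1.50e-10 and 2.79e-11). Both averaged 0 CPM in untreated HCC1937-EV, so no size can be given for these differences. ARNT, which encodes the constant partner of HIF1A in HIF-1, differed by -1.35 ± 0.11 (adjusted p = 3.02e-10), whereas HIF1A was higher. PDHA1, the catalytic subunit of pyruvate dehydrogenase that PDK1 inhibits, differed by -2.27 ± 0.10 (adjusted p = 1.50e-14).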

How the data were processed

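RNA was extracted with TRIzol and libraries were made with NEBNext Ultra II, per the labels and the study's methods. The authors deposited raw read counts per gene and library. The submitters' processing notes name HISAT2, featureCounts, DESeq2 and GRCh38 (hg38). Versions, strand use and the handling of reads with several matches are not given in the sources used here. The per-library count files held the same values as the joint table, which was used. The 33 genes and the other lists were chosen with earlier results of these data known.

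A filter on low counts by condition (filterByExpr) left 18335 genes. They were fitted with edgeR 4.0.16 (R 4.3.3), TMM normalisation and quasi-likelihood tests over all 18 libraries with 1 term for each of the 6 conditions, and p-values were adjusted over all genes by Benjamini-Hochberg with a threshold of 0.05. The biological coefficient of variation was 12.9%. The fit was tested on counts drawn with known fold changes for the 24 h comparison in HCC1937-EV. It recovered 62% of 1.5-fold and 98% of 2-fold changes, with 4 false calls. Smaller changes were not drawn, and the drawn libraries had no GC trend. Changes were drawn only in genes above a minimum level in untreated HCC1937-EV, with the spread typical of genes at their level. The rates therefore do not cover low members such as CA9 and ANKRD37 or variable ones such as LDHA and SLC16A1. Any of the 33 genes could be named, with values per library for those called in a treatment comparison or a difference of effects or differing most between the lines within their role. From each other list at most the 3 called genes with the largest log2 change per comparison were named, and the marker genes and BRCA1 were named as checks. Some genes of these lists are not reported here by name. Error terms after ± are SE for log2 values and SD for levels and shares. Permuting 3 libraries against 3 cannot give a p under 0.1, so none was used.

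Alternatives were DESeq2 size factors, DESeq2 1.42.0 with its Wald test, no filter, a replicate block, a GC and length correction (mgcv 1.9.3 trends as offsets), both together, only the compared libraries, and leaving out each library. The ratio for SLC2A3 has an exact interval for counting error only, and 3 counts were taken as the floor. Gene models came from GENCODE 29 and promoters from RefSeq.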

Additional observations from a re-analysis of the deposited data

Results flagged for a closer look

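The effect of olaparib differed between the lines by the test of the difference itself (HCC1937-OE-BRCA1 minus HCC1937-EV, log2 scale, edgeR's quasi-likelihood test) for 1 gene at 12 h and 9 genes at 24 h. These counts are to be read beside the shares of all genes tested. Over all genes, 0.376% had a higher and 0.142% a lower effect in HCC1937-OE-BRCA1 at 12 h. At 24 h the shares were 8.16% and 11.2%. Among the members, the gene called at 12 h was PFKFB4, at 1.28. At 24 h the effect was higher in HCC1937-OE-BRCA1 for NDRG1 (1.19), PFKFB4 (1.22), PDK1 (0.94), HIF1A (0.62) and P4HA1 (0.58), and lower for SLC16A3 (-1.17), LDHB (-1.08) and PFKL (-0.88). SLC2A3 came to 2.38 from 0 to 5 counts per HCC1937-OE-BRCA1 library, which gives no usable size. With the GC and length correction PDK1, HIF1A and P4HA1 came to 0.44, 0.22 and 0.37 and were not called, and PFKL came to -0.46 and was called.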

How the results depend on the processing

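No value of the 33 genes that was called changed sign. The 3601 recomputed values comprised those of single genes and the counts of called genes over all genes tested. Of these, 3314 kept the outcome: the same side of the threshold for a gene, or a similar count. Genes that were never called could change sign within these. Another 107 values lost the call, 84 gained it, and 96 counts moved. Without the filter on low counts, HCC1937-EV had 3 members higher at 12 h and 2 lower at 24 h, HCC1937-OE-BRCA1 had 3 lower at 24 h, and the 12 h difference had 2 higher and 1 lower. DESeq2's Wald test gave 2 lower in HCC1937-EV at 24 h and 2 with a higher 12 h difference. The GC and length correction gave 4 lower in HCC1937-EV at 24 h, 2 lower in HCC1937-OE-BRCA1 at each time, 2 higher and 1 lower for the 12 h difference, and 3 higher and 6 lower for the 24 h difference. Fitting only the compared libraries gave 7 lower in HCC1937-EV at 24 h and 0 with a higher 12 h difference.

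Replicate numbers did not pair the libraries: in 18 same-number pairs the deviations from the condition means correlated at -0.227 to 0.147, 2 of them over 0.1. With the replicate block the untreated lines differed in 8 members higher and 14 lower, against 11 and 16, since TPI1, GAPDH, ANKRD37, SLC16A3 and PFKP were not called. Under it the 12 h difference had 2 members higher, against 1, and the calls of BNIP3 at 24 h in HCC1937-OE-BRCA1 and P4HA1 in the 24 h difference were lost. With the block and the GC and length correction together it had 2, HCC1937-EV had 4 lower at 24 h, HCC1937-OE-BRCA1 had 3 lower at 24 h, and the 24 h difference had 5 lower.

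Leaving out 1 library gave 0 to 2 members higher in HCC1937-EV at 12 h, and 0 to 4 higher and 0 to 1 lower at 24 h. In HCC1937-OE-BRCA1 it gave 0 to 3 higher at 12 h, and 1 to 5 higher and 0 to 4 lower at 24 h. The differences had 0 to 2 higher at 12 h, and 3 to 6 higher and 2 to 8 lower at 24 h. Causes were not tested, except that fewer libraries entered these fits.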
